A study of Sus scrofa with 15 samples.

Results

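The Aurora and polo kinases and their partners were described in pig oocytes by poly(A) RNAseq. The members were 10 genes given by symbol: the Aurora kinases *AURKA*, *AURKB* and *AURKC*, the chromosomal passenger genes *INCENP*, *BIRC5* and *CDCA8*, the polo-like kinases *PLK1* and *PLK4*, and the kinase activators *TPX2* and *BORA*. Of these, 8 were matched to an Ensembl gene ID and all 8 were among the 13230 genes tested. *AURKA* and *AURKC* were not matched and are not analysed here.

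The study compared 15 libraries, each a pool of 15 oocytes from sow ovaries collected at an abattoir. The 5 GV (germinal vesicle) libraries held uncultured oocytes from fresh follicles, without a polar body. The 5 MII (metaphase II) and 5 ‘damaged’ libraries held oocytes freed of cumulus cells after 44 h of in vitro maturation, with a visible polar body in MII and with none in ‘damaged’. Stage and culture thus changed together between GV and the other groups and cannot be told apart, and ‘damaged’ was defined by the missing polar body alone, with no other test of damage. A pool averages over its oocytes, so fewer oocytes with a transcript and less of it in each oocyte cannot be told apart.

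A fully grown oocyte waits in prophase of meiosis I with its nucleus, the germinal vesicle, intact. When meiosis resumes, the spindle forms, homologous chromosomes separate into oocyte and polar body, and the oocyte halts again at metaphase II. Aurora kinase A builds spindle poles with its activator TPX2 and, together with BORA, switches on polo-like kinase 1. Aurora kinase B works on chromosomes and the central spindle in the chromosomal passenger complex, where INCENP is the scaffold that activates the kinase and survivin (the product of *BIRC5*) and borealin (the product of *CDCA8*) bring it to centromeres. In oocytes, Aurora kinase C can take the place of B in this complex. Polo-like kinase 4 starts centriole duplication, and in oocytes, which lose their centrioles, it acts at the acentriolar spindle poles. Oocytes transcribe little once meiosis resumes, and stored messages are lengthened, shortened or lost at their poly(A) tails, which poly(A)-primed libraries can register as a change of level.

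The libraries held 6.40 to 23.6 M estimated counts. The shallowest, GV replicate 3, was left out of the tests, as the study left out its GV library of fewest reads. It lay outside the range of the other GV libraries for 6 of the 8 members in TPM, a measure of transcript abundance that accounts for length and has a fixed sum per library. It was above them for *INCENP* (19.3 against 5.26 to 12.9) and *CDCA8* (159 against 48.0 to 85.2). It was below them for *TPX2* (162 against 228 to 261), *BORA* (24 against 31.1 to 41.5), *PLK4* (11.7 against 18.9 to 20.9) and *AURKB* (47.9 against 53.3 to 71.9). For 7 of the 15 libraries, the deposited gene table gave the library's name to a column whose sum was that of a differently labelled library, and the labels of the transcript files were followed. With only the 8 libraries whose names and totals agree (GV 4 and 5, MII 3 to 5, ‘damaged’ 3 to 5), the counts of members called were the same as those given below. In TPM, the 10 oocyte markers matched together reached 11951 to 16315 in GV, 2764 to 4555 in MII and 3257 to 4771 in ‘damaged’, each marker over 1 in every group mean. The part of this difference between groups in the members' values was not tested. The summed level of 10 cumulus and granulosa cell markers was 16.3 to 22.1 TPM in GV, 16.4 to 24.9 in MII and 20.4 to 27.3 in ‘damaged’, and 9 of these 10 had group means under 1 TPM, with follistatin (*FST*) as the exception.

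Against GV, the activators *TPX2* and *BORA* rose in MII, as did *AURKB*, *CDCA8* and *PLK4*, whereas *BIRC5* and *PLK1* fell and *INCENP* did not pass the test. In MII versus GV, 5 members were higher and 2 lower at an FDR under 0.01 (limma-voom, Benjamini-Hochberg over all genes). Among all genes tested, 28.2% were called higher and 34.2% lower. In ‘damaged’ versus GV, the counts were also 5 and 2, beside 28.0% and 33.4% of all genes. These comparisons share their GV libraries. A DEG, a gene that also changed by more than 2 on the log2 scale, was found in *TPX2* and *BORA* only, in each of the comparisons with GV (4.50% of all genes were DEGs higher in MII, and 4.08% in ‘damaged’). No member was a DEG with a lower level, beside 17.1% of all genes in MII and 16.4% in ‘damaged’. With TMM factors (described below), the libraries of MII and GV did not overlap for 7 members and those of ‘damaged’ and GV for 7, beside 59.9% and 58.4% of all genes. In TPM, *AURKB*, *CDCA8* and *PLK4* overlapped with GV in each comparison, and *INCENP* did not overlap in MII versus GV. The median difference of the 8 members was 0.83 on the log2 scale in MII versus GV (all genes -0.17) and 0.81 in ‘damaged’ versus GV (all genes -0.14).

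These directions rest on the scaling of libraries. TMM factors, which assume that most genes hold their level, were 1.35 to 1.73 in GV and 0.794 to 0.922 in the other libraries. On library sizes alone, the median of all genes moved from -0.17 to -1.09 in MII versus GV and from -0.14 to -1.01 in ‘damaged’ versus GV. Genes called higher then made up 16.0% of those called in MII versus GV, in place of 45.2%, and 16.6% in ‘damaged’ versus GV, in place of 45.6%. On that scale *TPX2* and *BORA* were still called higher and *BIRC5* and *PLK1* lower, *INCENP* was also called lower, and *AURKB*, *CDCA8* and *PLK4* were not called. Relative to the median of all genes, the members' differences were nearly the same on either scale. The 2 scalings are set side by side in the plot of fold changes.

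**Figure D1:**
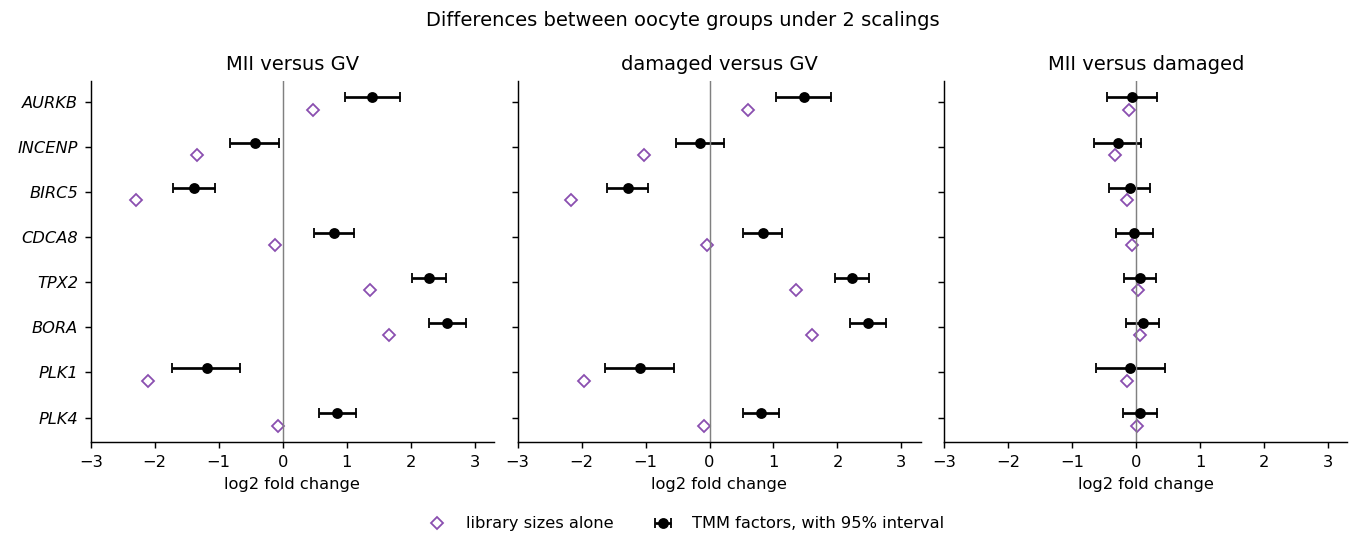
Log2 fold change of each member in the 3 comparisons, with TMM factors (filled points, 95% interval) and on library sizes alone (open diamonds). In the comparisons with GV the open diamonds lie to the left of the filled points for every member, those of *CDCA8* and *PLK4* lie just below 0, and in MII versus ‘damaged’ all intervals include 0.

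*TPX2*, on chromosome 17 (35431271 to 35484814, RefSeq Sscrofa11.1), frees Aurora kinase A from inhibition and targets it to spindle microtubules. It was the most abundant member per transcript length in every group. Its level, in CPM (counts scaled to TMM-adjusted library size), was 510, 361, 447 and 342 in GV replicates 1, 2, 4 and 5. In MII replicates 1 to 5 it was 1921, 2198, 1941, 2147 and 1815, and in ‘damaged’ replicates 1 to 5 it was 1795, 2054, 1882, 2104 and 1794. Every cultured library was thus above every GV library, and MII and ‘damaged’ overlapped. *TPX2* rose by 2.29 ± 0.13 (log2 ± SE, FDR = 1.46e-11) in MII versus GV and by 2.23 ± 0.13 (FDR = 2.17e-11) in ‘damaged’ versus GV. In fold terms, the rise in MII was 4.88 (95% interval 4.06 to 5.88). On library sizes alone the rises were 1.37 and 1.35. Only 1 transcript was found for the gene in these data, so no isoform test applied.

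*BORA*, on chromosome 11 (45017651 to 45045127), encodes the cofactor through which Aurora kinase A activates polo-like kinase 1, and with TMM factors had the largest difference of the members, whereas on library sizes the differences of *BIRC5* and *PLK1* were larger in size. Its level was 39.1, 31.8, 29.1 and 31.5 CPM in the 4 GV libraries. MII libraries held 192, 204, 163, 208 and 208 CPM, and ‘damaged’ libraries 166, 186, 216, 184 and 162 CPM. No MII or ‘damaged’ library came near the GV range, and the spread within groups was small beside the gap. The rise was 2.57 ± 0.14 (FDR = 7.73e-12) in MII and 2.48 ± 0.14 (FDR = 1.29e-11) in ‘damaged’, or 5.95-fold (4.88 to 7.25) and 5.57-fold (4.57 to 6.78). It lay above 98.8% of all genes tested in each comparison. On library sizes the rises were 1.66 and 1.60. Of the 3 transcripts found for *BORA*, ENSSSCT00000047222.2 took 94.6 to 98.2% of the gene's TPM in GV, 97.2 to 99.4% in MII and 97.3 to 98.6% in ‘damaged’. In GV replicate 3 its share was 62.3%. *BORA* shares 1359 bases with *MZT1* in RefSeq, and in libraries without strand information reads from shared bases cannot be assigned to either gene with certainty.

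*PLK1*, on chromosome 3 (22537814 to 22550901), the kinase that BORA helps to activate, drives entry into M phase and spindle assembly. Its level moved the other way from that of *BORA*. GV libraries held 56.5, 66.5, 64.8 and 129 CPM, the last in replicate 5. In MII the values were 25.9, 30.0, 53.2, 23.0 and 40.4 CPM, and in ‘damaged’ 30.1, 24.1, 43.9, 39.0 and 42.0 CPM. The groups did not overlap, although MII replicate 3 lay close under the lowest GV library. *PLK1* fell by 1.19 on the log2 scale in MII (SE 0.26, FDR = 3.43e-04) and by 1.09 in ‘damaged’ (SE 0.25, FDR = 7.41e-04). Leaving out single libraries moved the difference between -1.36 and -0.92 in MII and between -1.21 and -0.83 in ‘damaged’, so the fall did not rest on GV replicate 5. On library sizes the differences were -2.11 and -1.96. The RefSeq gene shares 59 bases with *ERN2*.

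*AURKB*, on chromosome 12 (53410833 to 53426165), the catalytic subunit of the chromosomal passenger complex, was measured at 55.2, 35.8, 47.5 and 42.4 CPM in GV. MII libraries held 81.2, 114, 151, 108 and 149 CPM, and ‘damaged’ libraries 119, 97.6, 190, 116 and 114 CPM. All cultured libraries exceeded GV on this scale, with a wider spread than in the other members that rose. The rise was 1.40 ± 0.21 (FDR = 4.83e-06) in MII and 1.47 ± 0.20 (FDR = 2.57e-06) in ‘damaged’. On library sizes it was 0.48 (FDR = 0.0439) and 0.60 (FDR = 0.0150), which did not pass the test. In TPM, the ranges of MII (54.1 to 114) and ‘damaged’ (65.9 to 135) overlapped with that of GV (53.3 to 71.9).

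*INCENP*, on chromosome 2 (9411942 to 9445825), the scaffold on which the passenger complex assembles, had the lowest level of the members per transcript length in every group. GV libraries held 14.5, 20.6, 18.7 and 24.3 CPM, MII libraries 11.7, 15.0, 15.5, 13.9 and 14.9 CPM, and ‘damaged’ libraries 15.6, 14.9, 14.8, 19.2 and 23.6 CPM. These ranges overlapped. The difference was -0.44 ± 0.18 (FDR = 0.0376) in MII versus GV and -0.15 ± 0.18 (FDR = 0.463) in ‘damaged’ versus GV, neither past the threshold. On library sizes *INCENP* was called lower, at -1.34 (FDR = 1.94e-05) in MII and -1.02 (FDR = 3.05e-04) in ‘damaged’. Without GV replicate 1, its difference in MII versus GV passed the test at -0.55 (FDR = 0.00848). In TPM, MII (2.45 to 3.68) lay below GV (5.26 to 12.9), and ‘damaged’ (3.15 to 6.02) overlapped with GV.

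*BIRC5*, on chromosome 12 (3747276 to 3755214), encodes survivin, the subunit that reads the centromeric histone mark. GV libraries held 89.7, 77.1, 58.8 and 74.1 CPM. MII libraries held 27.4, 25.2, 36.4, 25.6 and 28.5 CPM and ‘damaged’ libraries 27.1, 30.0, 27.0, 31.9 and 37.0 CPM. Every cultured library was well below every GV library. *BIRC5* fell by 1.39 on the log2 scale in MII (SE 0.15, FDR = 1.38e-07) and by 1.28 in ‘damaged’ (SE 0.15, FDR = 3.60e-07). The level in GV was 2.61 times that in MII and 2.43 times that in ‘damaged’. On library sizes the differences were -2.30 and -2.16.

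*CDCA8*, on chromosome 6 (93750694 to 93764845), encodes borealin, which joins survivin and INCENP in the targeting module. Its GV libraries held 52.4, 72.2, 50.9 and 59.7 CPM, its MII libraries 126, 92.2, 112, 93.7 and 89.0 CPM, and its ‘damaged’ libraries 100, 111, 86.1, 104 and 119 CPM. The groups did not overlap with GV on this scale. The rise of *CDCA8* was 0.80 ± 0.15 (FDR = 7.50e-05) in MII and 0.83 ± 0.15 (FDR = 5.02e-05) in ‘damaged’, but on library sizes the differences were -0.12 (FDR = 0.539) and -0.04 (FDR = 0.821). With GV replicate 3 included, the differences were 0.57 (FDR = 0.0202) and 0.60 (FDR = 0.0153) and were not called. The subunit genes of the complex thus differed in direction at the same time points, with *AURKB* and *CDCA8* higher and *BIRC5* lower with TMM factors, though only *BIRC5* of these was called on library sizes. RefSeq places 114 bases of *EPHA10* within the gene.

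*PLK4*, on chromosome 8 (96989011 to 97013324), the kinase of centriole duplication, held 35.8, 29.6, 33.4 and 26.4 CPM in GV. MII libraries held 60.4, 55.5, 58.3, 55.1 and 51.8 CPM, and ‘damaged’ libraries 49.2, 57.5, 49.6, 64.7 and 50.9 CPM. MII and GV, and ‘damaged’ and GV, did not overlap on this scale. The rise was 0.85 ± 0.14 (FDR = 1.32e-05) in MII and 0.80 ± 0.14 (FDR = 2.83e-05) in ‘damaged’, while on library sizes *PLK4* stood at -0.07 (FDR = 0.645) and -0.08 (FDR = 0.602). In TPM, which has a fixed sum per library and carries no TMM factor, its mean was 20.0 in GV, 17.6 in MII and 17.6 in ‘damaged’.

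**Figure D2:**
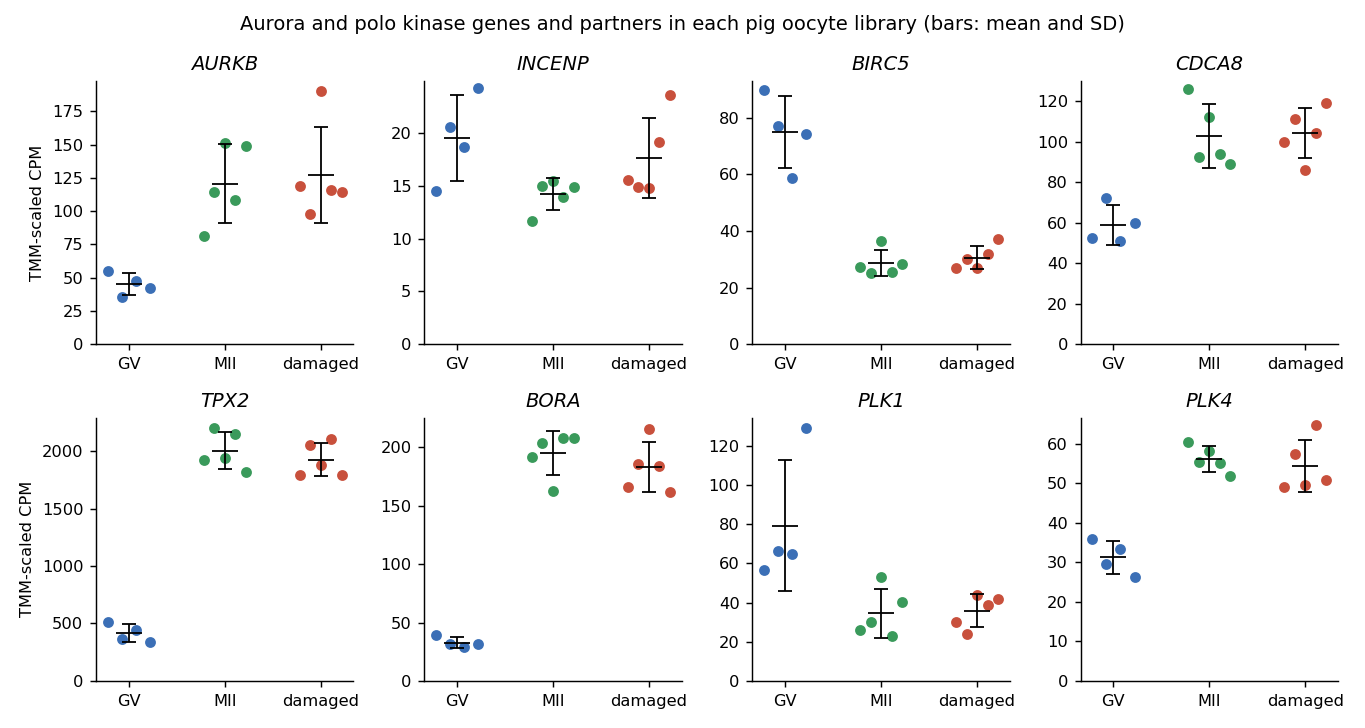
TMM-scaled CPM of the 8 members in each of the 14 libraries tested, by group (GV n = 4, MII n = 5, ‘damaged’ n = 5), with mean and SD on linear axes from 0. *TPX2* and *BORA* are far above GV in every MII and ‘damaged’ library, *BIRC5* and *PLK1* are below it, *INCENP* overlaps between groups, and GV replicate 5 of *PLK1* stands at 129 CPM.

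Levels of different genes were compared only in TPM, which accounts for transcript length. In GV the order of mean TPM was *TPX2* (246 ± 13.6, SD), *BIRC5* (126 ± 22.5), *CDCA8* (67.2 ± 18.2), *AURKB* (63.6 ± 7.67), *PLK1* (40.2 ± 23.2), *BORA* (36.2 ± 4.32), *PLK4* (20.0 ± 0.862) and *INCENP* (8.97 ± 3.20). The libraries of *CDCA8*, *AURKB*, *PLK1* and *BORA* overlapped from each gene to the next, and the other neighbours did not overlap. In MII the order was *TPX2* (583 ± 42.1), *BORA* (104 ± 6.26), *AURKB* (83.6 ± 24.5), *CDCA8* (55.8 ± 9.86), *BIRC5* (23.4 ± 5.30), *PLK4* (17.6 ± 1.59), *PLK1* (8.20 ± 3.48) and *INCENP* (3.07 ± 0.447). *BORA* had moved from rank 6 to rank 2 and *BIRC5* from rank 2 to rank 5. In MII, *BORA* overlapped with *AURKB*, *AURKB* with *CDCA8*, and *BIRC5* with *PLK4*. In ‘damaged’ libraries the genes stood in the same order as in MII, from *TPX2* at 580 ± 53.6 TPM to *INCENP* at 3.98 ± 1.22 TPM. There, *BORA* overlapped with *AURKB*, *AURKB* with *CDCA8*, and *PLK1* with *INCENP*.

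A ratio of 2 genes within a library is the same under any scaling of libraries, so ratios show the unequal change of partners directly. These are descriptions without a test, and the ratio of *AURKB* to *INCENP* was added after the data were seen. *BORA* stood to *PLK1* at 1.58, 1.09, 1.02 and 0.559 in GV replicates 1, 2, 4 and 5 (TPM ratio). The ratio was 16.9, 15.5, 7.01, 20.6 and 11.8 in MII and 12.6, 17.6, 11.2, 10.8 and 8.81 in ‘damaged’. The *BORA* transcript level thus went from 0.559 to 1.58 times that of *PLK1* in GV to at least 7.01 times in each cultured library. *PLK4* was below *PLK1* in all 4 GV libraries (ratios of 0.274 to 0.847) and above it in all MII (1.46 to 3.20) and ‘damaged’ libraries (1.51 to 3.19).

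Within the passenger complex, each subunit was set against the scaffold gene *INCENP*. *AURKB* stood at 5.55 to 12.1 times *INCENP* in GV, 22.1 to 31.9 times in MII and 15.4 to 40.7 times in ‘damaged’. *CDCA8* stood at 6.19 to 9.14 times in GV, 15.1 to 27.1 times in MII and 12.8 to 18.9 times in ‘damaged’. *BIRC5* went the other way, from 11.5 to 23.3 times in GV to 6.33 to 8.84 times in MII and 5.91 to 7.60 times in ‘damaged’. None of these GV ranges overlapped with MII or ‘damaged’. GV replicate 3 fell outside the range of the other GV libraries for *AURKB* (2.49) and for *BIRC5* (6.50, within the MII range), but not for *CDCA8* (8.26).

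**Figure D3:**
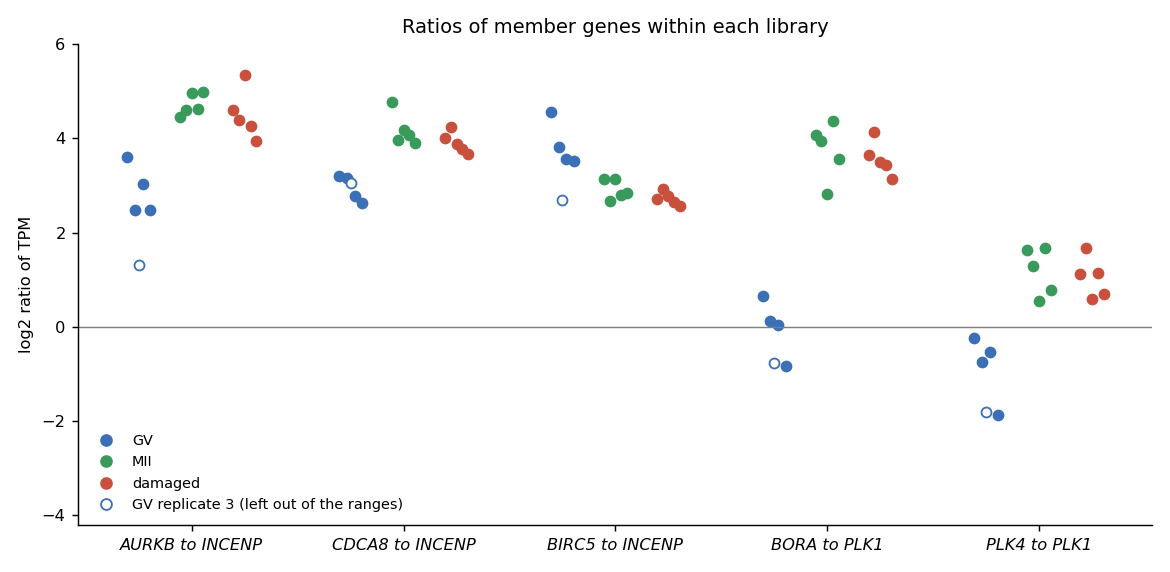
Log2 ratio of TPM of 2 members within each library, by group, with GV replicate 3 as an open circle. *BORA* to *PLK1* lies between -0.84 and 0.66 in the 4 GV libraries and between 2.81 and 4.37 in MII, and *BIRC5* to *INCENP* is the only ratio of the 5 that is lower in MII and ‘damaged’ than in the 4 GV libraries.

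Isoform use was tested for the members with more than 1 transcript past the filters, *PLK4* and *AURKB*. An isoform was called at an FDR under 0.01 (limma diffSplice) and a difference of more than 10 percentage points of the gene's TPM. Each of these genes was called in MII versus GV and in ‘damaged’ versus GV, beside 43.0% and 43.4% of all genes tested for isoforms (29.6% and 30.1% of isoforms). The longer *PLK4* transcript, ENSSSCT00000009942.5 (3883 bases), took 40.0, 27.6, 40.1 and 27.6% of *PLK4* in GV. It took 74.6, 71.6, 69.9, 71.8 and 78.5% in MII and 67.0, 68.1, 63.4, 73.6 and 73.4% in ‘damaged’. The major transcript thus changed from ENSSSCT00000083325.2 (3636 bases) in GV to the longer form in every cultured library. These shares rest on an estimated split of short single-end reads between the 2 transcripts. The share of the longer form rose by 39.5 percentage points in MII (FDR = 7.14e-09) and by 35.3 in ‘damaged’ (FDR = 5.72e-08). The shorter form went from 13.3 ± 1.64 TPM (SD, n = 4) in GV to 4.72 ± 0.894 in MII and 5.37 ± 0.438 in ‘damaged’ (n = 5 each), and the longer form from 6.77 ± 1.42 to 12.9 ± 0.968 and 12.2 ± 2.37. In GV replicate 3, outside the test, the longer form took 14%. On the TPM scale, the near equal level of *PLK4* in the 3 groups therefore held opposite differences of its 2 transcripts. Levels of the transcripts with TMM factors, under which the gene rose, are not given.

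*AURKB* had 2 transcripts of nearly the same length, ENSSSCT00000025604.4 (1827 bases) and ENSSSCT00000090078.2 (1828 bases), and how short single-end reads were split between them is uncertain. The second took 59.0, 30.8, 43.1 and 30.0% in GV, 64.6, 69.9, 64.1, 67.5 and 66.3% in MII, and 63.3, 60.2, 65.7, 77.4 and 66.1% in ‘damaged’. Its share rose by 25.8 percentage points in MII (FDR = 0.00273) and by 25.8 in ‘damaged’ (FDR = 0.00225). GV was the uneven group, with replicate 1 close to the cultured libraries. Without GV replicate 2 the FDR was 0.0142 in MII and 0.0122 in ‘damaged’, and without GV replicate 5 it was 0.0207 and 0.0176, so this call rested on single GV libraries, while the difference stayed at 22.2 to 22.5 percentage points. With all 5 GV libraries it was 32.9 percentage points in each comparison (FDR = 0.00240 and 0.00204). In GV replicate 3, outside the test, the share was 5.16%.

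**Figure D4:**
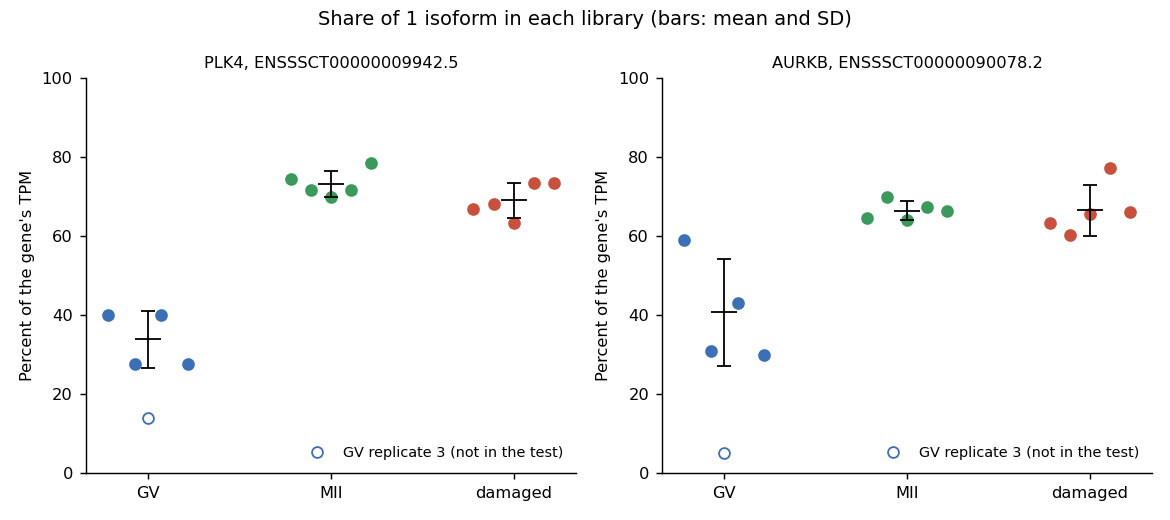
Share of 1 transcript in the TPM of its gene in each library, for *PLK4* (ENSSSCT00000009942.5) and *AURKB* (ENSSSCT00000090078.2), with mean and SD (GV n = 4, MII n = 5, ‘damaged’ n = 5) and GV replicate 3 as an open circle. For *PLK4* the GV libraries tested lie at or below 40.1% and all others at or above 63.4%, while for *AURKB* 1 GV library reaches 59.0%.

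MII and ‘damaged’ oocytes, which differ by the presence of the polar body, were compared to ask whether these genes differ when it is missing. No member was called (0 of 8, beside 0% of all genes in either direction), no isoform of a member was called (beside 0.0183% of genes and 0.00679% of isoforms tested), and all members overlapped between the groups (0.272% of all genes did not). The smallest unadjusted p by limma-voom among members was 0.123 (*INCENP*), so 0 of 8 members had an unadjusted p under 0.05. Among all genes, 194 of 13230 did, below the share of 0.05 that chance gives where no gene differs. The quasi-likelihood test of edgeR and DESeq2 also called 0 genes. The differences on the log2 scale were -0.29 (95% interval -0.66 to 0.08) for *INCENP*, -0.07 (-0.46 to 0.32) for *AURKB*, -0.10 (-0.43 to 0.22) for *BIRC5* and -0.03 (-0.32 to 0.26) for *CDCA8*. For *TPX2* the difference was 0.06 (-0.19 to 0.30) and for *BORA* 0.10 (-0.16 to 0.35). For *PLK4* it was 0.05 (-0.21 to 0.32) and for *PLK1* -0.10 (-0.63 to 0.44). For *TPX2*, the member with the narrowest interval, the 95% interval of the fold of MII over ‘damaged’ was 0.877 to 1.24. For *PLK1* it was 0.645 to 1.35. Differences within these intervals are not excluded with 5 libraries a group. The bounds are not the smallest differences that the test could call.

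The genes around these kinases were taken from 5 lists of activators, targets and structural partners, with 57 genes tested in all. In MII versus GV, 34 (59.6%) were higher and 14 (24.6%) lower with TMM factors, beside 28.2% and 34.2% of all genes, and on library sizes 19 were higher and 23 lower. In ‘damaged’ versus GV, 31 (54.4%) were higher and 13 (22.8%) lower, beside 28.0% and 33.4% of all genes, and on library sizes the counts were again 19 and 23. In MII versus ‘damaged’ 0 of 57 were called. Rises outnumbered falls with TMM factors, and this order turned on library sizes. Of all 13230 genes, 1447 were higher and 7612 lower on library sizes in MII versus GV, and 1476 and 7404 in ‘damaged’ versus GV. Falls thus outnumbered rises by less in the lists than among all genes. These lists were chosen with earlier results of these data known, so the shares here and below are descriptive only.

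Of the recruiters and targets of the chromosomal passenger complex, 12 of 16 were higher and 4 lower in MII, with a median difference of 1.01 on the log2 scale, beside 28.2% higher, 34.2% lower and a median of -0.17 for all genes. On library sizes 6 were higher and 4 lower (median 0.10, all genes -1.09). *SGO2*, a shugoshin that protects centromeric cohesion and was the highest of the list, went from 136 ± 55.6 CPM in GV to 877 ± 86.7 in MII, a rise of 2.77 ± 0.18 (FDR = 1.04e-10). *DSN1*, a subunit of the kinetochore complex MIS12 and the lowest of the list, went from 118 ± 29.1 to 23.8 ± 0.909 CPM, a difference of -2.27 ± 0.16 (FDR = 3.16e-10). The kinases whose histone marks help to bring the complex to centromeres differed in direction. *BUB1* was higher by 1.44 (FDR = 4.45e-09) and *HASPIN* lower, at -2.16 (FDR = 1.84e-06). In mean CPM, *BUB1* went from 68.7 in GV to 186 in MII, and *HASPIN*, at a low level, from 7.59 to 1.69.

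Of the docking partners and targets of polo-like kinase 1, 9 of 15 were higher and 3 lower in MII (median 1.24), beside 28.2% and 34.2% of all genes. On library sizes 6 were higher and 6 lower (median 0.33, all genes -1.09). *ERCC6L*, a helicase of anaphase DNA bridges, rose by 2.15 ± 0.16 (FDR = 6.07e-10), from 44.4 ± 7.13 to 197 ± 30.9 CPM. *FOXM1*, a transcription factor of mitotic genes, was at 11.0 ± 4.73 CPM in GV and 0.501 ± 0.386 in MII, with 1.97 to 14.8 counts in MII libraries (-4.59 ± 0.50, FDR = 9.13e-08).

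Among activators, targets and phosphatases of Aurora kinase A, 7 of 14 were higher and 5 lower in MII (median 0.09), beside 28.2% and 34.2% of all genes. On library sizes the order turned, with 3 higher and 8 lower (median -0.83), beside 1447 higher and 7612 lower of all 13230 genes (median -1.09). *PPP6C*, the catalytic subunit of the phosphatase that switches off Aurora kinase A, rose by 2.60 ± 0.12 (FDR = 1.98e-12), from 202 ± 18.0 to 1226 ± 95.1 CPM. *AJUBA*, a LIM protein that activates the same kinase, fell from 115 ± 19.6 to 4.35 ± 1.96 CPM (-4.79 ± 0.28, FDR = 2.44e-11). Activators thus differed in direction, since *TPX2* rose.

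Of the centriole duplication partners of polo-like kinase 4, 6 of 10 were higher and 2 lower in MII (median 1.08), beside 28.2% and 34.2% of all genes. On library sizes 4 were higher and 4 lower (median 0.17, all genes -1.09). *CCP110*, which caps centrioles, rose from 59.6 ± 3.80 to 240 ± 30.6 CPM (log2 SE 0.14, FDR = 1.69e-10), just short of a DEG. *FBXW5*, an F-box protein that limits centriole duplication, had 12 to 69.9 counts in the 4 GV libraries. All 5 MII libraries had 0 counts. The GV mean of *FBXW5* was 37.5 times a floor of 3 counts over the MII group. That ratio leaves out the spread between libraries and is not a lower bound. The fitted difference was -5.29 on the log2 scale (95% interval -6.67 to -3.92, FDR = 5.89e-07). Of the other polo-like kinases, *PLK2* (0.99, FDR = 0.0411) and *PLK3* (-0.31, FDR = 0.188) were tested and not called.

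**Figure D5:**
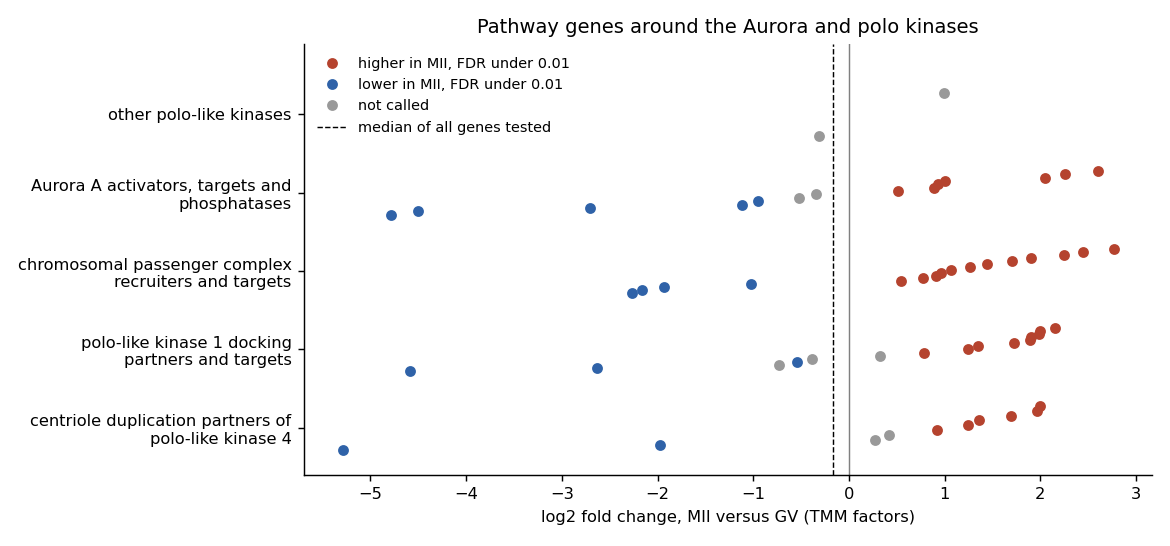
Log2 fold change in MII versus GV (TMM factors) of the 57 genes of the 5 partner lists, coloured by call at an FDR under 0.01, with the median of all genes tested (-0.17) as a dashed line. The recruiters and targets of the passenger complex have 12 genes to the right and 4 to the left, and each list other than that of the other polo-like kinases has called genes on either side.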

How the data were processed

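The authors trimmed reads with AfterQC and made estimated counts and TPM per transcript with Kallisto 0.43 (Ensembl cDNA of Sscrofa11.1). Their deposited estimated counts per gene came from tximport (lengthScaledTPM). In that table, 7 columns summed to the total of a differently labelled library and were left out. The remaining 8 served to find each gene's transcripts, and gene counts of all 15 libraries were recomputed from the transcript files by the same formula (largest difference from deposited counts of at least 10, 7.02e-07%).

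Groups came from the labels. Genes were tested with limma 3.58.1 (voom) and TMM factors after filterByExpr (edgeR 4.0.16, R 4.3.3) in 1 fit of 14 libraries, with an FDR under 0.01 and, for DEGs, an absolute log2 fold change over 2. The methods name no scaling factor, so library sizes were an alternative. Isoforms used limma diffSplice (gene TPM over 1, isoform fraction over 5%). DESeq2 1.42.0 was an alternative. Fits were tested on simulated data. Symbols came from an Ensembl name table and positions from RefSeq. Named partners had the highest or lowest difference of each list in MII versus GV among called genes without overlap; *BUB1*, *HASPIN*, *PLK2* and *PLK3* were added after their values were seen. Members and lists were chosen with earlier results of these data known. Within groups, the chi-square per gene between libraries was 15.2 to 209, above counting error. The study describes 5 independent collections, each giving oocytes of every group, and the labels do not tie replicate numbers to collections.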

Additional observations from a re-analysis of the deposited data

Results flagged for a closer look

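Of 45 sets of values of 1 group (member levels, ratios and isoform shares), 2 held a library far from the others by Dixon's test at the 95% level, which chance gives in about 1 of 20. *PLK1* was at 129 CPM (TMM-scaled) in GV replicate 5, against 56.5 to 66.5 in the other 3 GV libraries tested. Without that library the differences were within the range given for *PLK1* when single libraries were left out. *AURKB* was at 190 CPM in ‘damaged’ replicate 3, against 97.6 to 119 in the other 4.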

How the results depend on the processing

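On library sizes without normalization factors, members called higher numbered 2 in MII versus GV and 2 in ‘damaged’ versus GV, in place of 5 and 5. DEGs that were higher numbered 0 and 0 in place of 2, and DEGs that were lower 2 and 1 in place of 0. Partner genes called higher numbered 19 in each comparison in place of 34 and 31, and those called lower 23 in place of 14 and 13. *CDCA8* (-0.12 and -0.04) and *PLK4* (-0.07 and -0.08) changed sign, and among all genes 1447 and 1476 were higher and 7612 and 7404 lower, in place of 3727 and 3699 and of 4523 and 4419. With a filter of 10 CPM, DEGs that were higher numbered 1 and 1, since *TPX2* was at 1.96 and 1.92, *INCENP* was called lower in MII (-0.77, FDR = 0.00101), and genes called lower numbered 2890 and 2839. Members with a called isoform difference numbered 1 to 2 when single libraries were left out. In MII versus ‘damaged’, leaving out single libraries moved the differences of *AURKB* between -0.16 and 0.08, of *CDCA8* between -0.10 and 0.02 and of *PLK1* between -0.27 and 0.04. With the replicate number as a block, members called numbered 5 higher and 2 lower in each comparison with GV and 2 had a called isoform difference, so the block changed no call. Of 13 same-numbered pairs of libraries, 3 had deviations that correlated above 0.1 (range -0.10 to 0.32), so the numbers were not taken to pair libraries. The cause of these changes was not tested.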
